A study of Mus musculus with 24 samples.

Results

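The chemokine ligands described here are Cxcl16, Cxcl10, Ccl5, Ccl19, Cxcl12, Cx3cl1 and Cxcl14, chosen by name, and all 7 had a row among the 15524 genes of the expression table. The lumbar spinal cord (SC) of 24 mice was profiled by MARS-seq, with 1 library per mouse, a method that counts the 3′ ends of transcripts with molecular identifiers. The 4 AAV-MIF mice were male SOD1-G37R mice given a single tail-vein injection, after disease onset, of AAV-PHP.eB-MIF, a virus vector that reaches the nervous system from the blood and carries MIF with an HA tag. The 10 untreated SOD1-G37R mice (3 females and 7 males) carried the human mutant SOD1 transgene (loxSOD1-G37R, bred with C57BL6 mice), which causes a late-onset motor neuron disease, and the 10 non-transgenic (NT) mice (3 females and 7 males) were their untreated littermates. Untreated SOD1-G37R mice were taken at the symptomatic stage, which the study places at roughly a year of age, and the age of the AAV-MIF mice is not given in the sources used here. The AAV-MIF mice were compared with uninjected mice, so an effect of MIF and an effect of the vector or the injection cannot be told apart. By their sample codes, 6 SOD1-G37R and 6 NT mice of both sexes formed a larger experiment. By the same codes, 4 AAV-MIF, 4 SOD1-G37R and 4 NT males formed a smaller one. AAV-MIF mice were tested against mice of the smaller experiment. Mice of the larger one entered where levels were set beside all 20 untreated mice, and in alternatives that fitted all 24 mice.

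Levels are the deposited normalized values on a log2 scale after removal of the difference between experiments, and all differences below are on that scale. They are not divided by transcript length. Differences are taken between mice and not between genes, and a percentile or cut-off of level places a gene only roughly. A gene was called changed when limma's moderated test gave an adjusted p under 0.05 over all 15524 genes. The mean levels of neuron, astrocyte and oligodendrocyte marker genes were at least 8.08, 8.88 and 10.9 in every mouse of the SC. The Mif row was at 9.77 ± 0.187 in AAV-MIF mice, 9.69 ± 0.108 in SOD1-G37R mice and 9.72 ± 0.145 in NT mice of the smaller experiment (SD, n = 4 each), and whether it counts RNA made from the vector is not stated, so it does not check the labels. The mean level of 4 hemoglobin genes was 10.3 in AAV-MIF mouse 1, 9.93 in SOD1-G37R mouse 1 and 8.82 in SOD1-G37R mouse 2 of the smaller experiment, against 4.55 to 7.61 in the other 21 mice. The calls of ligands in comparisons that hold these 3 libraries are also given without them, and the counts over gene lists are not.

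Chemokines are small proteins that draw cells along a gradient by binding G protein-coupled receptors, and most are held on the sugar chains of cell surfaces and matrix. They are grouped by the spacing of a pair of cysteines near the start of the mature protein. Inflammatory ligands such as Cxcl10 and Ccl5 are made when glia and leukocytes are activated, homing ligands such as Ccl19 and Cxcl12 guide cells at rest and in development, and Cx3cl1 is made mainly by neurons in the nervous system and read by the microglial receptor Cx3cr1. Cxcl16 and Cx3cl1 are made as membrane proteins on a mucin stalk and are released when Adam10 or Adam17 cuts the stalk.

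The motif that names each subfamily is printed here because the ligands that changed and those that did not fall across these subfamilies. Each line gives 27 coding bases, 5′ to 3′ on the coding strand, from GENCODE M21 transcripts (build GRCm38), with the cysteine codons in capitals. The cysteine codons touch in the CC ligands, have 1 codon between them in the CXC ligands and 3 in Cx3cl1.
Ccl5: actcccTGCTGCtttgcctacctctcc
Ccl19: gaagacTGCTGCctgtctgtgacccag
Cxcl16: ggaagtTGTtctTGTgatcgtaccatt
Cxcl10: gtccgcTGCaacTGCatccatatcgat
Cxcl12: taccgaTGCcccTGCcggttcttcgag
Cxcl14: tccaagTGTaagTGTtcccggaagggg
Cx3cl1: acgaaaTGCgaaatcatgTGCgacaag
These bases lie at chr11:83529227-83529253 (minus strand) for Ccl5, chr4:42755245-42755271 (minus) for Ccl19, chr11:70459115-70459141 (minus) for Cxcl16, chr5:92348169-92348195 (minus) for Cxcl10, chr6:117171502-117171528 (plus) for Cxcl12, chr13:56295903-56295929 (minus) for Cxcl14 and chr8:94778045-94778071 (plus) for Cx3cl1, each within 1 coding exon. The encoded precursors have 91 residues for Ccl5, 108 for Ccl19, 98 for Cxcl10, 93 for Cxcl12 and 99 for Cxcl14, against 246 for Cxcl16 and 395 for Cx3cl1, the pair with a membrane stalk.

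To learn how chemokine ligand RNA differed in diseased cord, untreated SOD1-G37R mice were compared with NT mice. Cxcl16, Cxcl10 and Ccl19 were called higher in SOD1-G37R mice (3 of the 7 ligands, 14.8% of all genes called higher), and none was called lower (11.8% of all genes called lower). Cxcl16 had the largest difference of the 7 at 1.63, Cxcl10 followed at 0.78, and the difference of Ccl19 was 0.17. Ccl5, Cxcl12, Cxcl14 and Cx3cl1 were not called. The median difference of the 7 ligands was 0.14, beside 0.00 over all genes. Without the 3 mice of high hemoglobin genes Cxcl16, Cxcl10 and Ccl19 stood at 1.64, 0.80 and 0.18 and were each still called (limma adjusted p = 3.55e-08, 8.66e-05 and 0.0293).

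**Figure D1:**
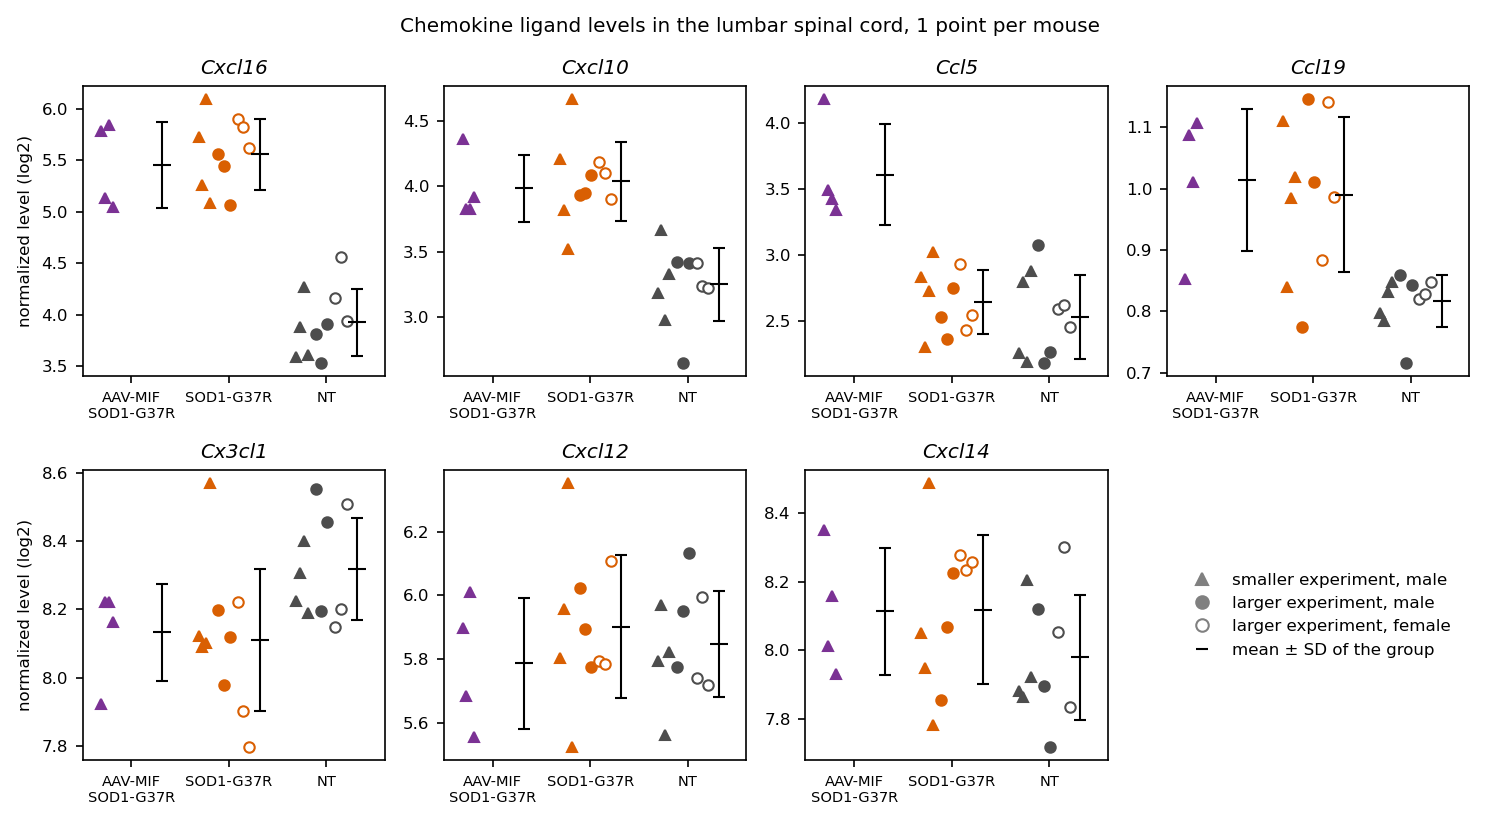
Normalized level (log2) of each chemokine ligand in each mouse, by group (AAV-MIF SOD1-G37R, SOD1-G37R, NT); triangles are males of the smaller experiment, filled circles males and open circles females of the larger one, and bars give the group mean ± SD. Cxcl16 separates all 10 SOD1-G37R mice (5.07 to 6.09) from all 10 NT mice (3.53 to 4.56), and Ccl5 places the 4 AAV-MIF mice (3.34 to 4.18) above every untreated mouse.

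Cxcl16 is the ligand of Cxcr6, a receptor of activated T cells, and its gene lies at chr11:70453983-70459984. Its lowest, median and highest levels were 5.07, 5.59 and 6.09 in SOD1-G37R mice and 3.53, 3.90 and 4.56 in NT mice (n = 10 each). The lowest SOD1-G37R mouse was thus above the highest NT mouse, a separation seen upward in 3.23% of all genes and downward, where no ligand had it, in 0.773%. The difference was 1.63 (SE 0.137, 95% confidence interval 1.35 to 1.91, limma adjusted p = 2.74e-09). It was 1.58 (SE 0.116) in the larger experiment and 1.70 (SE 0.230) in the smaller one, and among males the genotype difference of the smaller experiment minus that of the larger one was 0.10 (SE 0.309, limma adjusted p = 0.999). In the larger experiment the genotype difference of males minus that of females was 0.05 (95% confidence interval -0.47 to 0.56). In both genotypes there, each female was above each male. NT females were at 4.16, 4.56 and 3.94, and NT males at 3.82, 3.53 and 3.91. SOD1-G37R females were at 5.90, 5.82 and 5.62, and SOD1-G37R males at 5.56, 5.45 and 5.07. A difference between the sexes themselves was not tested. Exons of Zmynd15 overlap Cxcl16 on the opposite strand, and since use of strand in the counting is not stated their reads may not be told apart. Zmynd15 was at 0.630 ± 0.168 in SOD1-G37R mice and 0.520 ± 0.215 in NT mice (SD, n = 10 each) and was not called (0.11, limma adjusted p = 0.394).

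Marker genes of myeloid cells moved with Cxcl16. Of 6 microglia genes 3 rose, Aif1 (1.20) and Csf1r (0.93) among them, and Tmem119, P2ry12 and Sall1 were not called, and the mean level of the list ran from 5.90 to 6.32 in SOD1-G37R mice and from 5.37 to 5.60 in NT mice. Of the border macrophage genes measured, Ms4a7 rose by 1.92 and Cd163 was not called (0.03). In whole cord, a change in the number of cells of a type and a change in RNA per cell cannot be told apart, and the part of these cells in the Cxcl16 difference was not tested.

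Cxcl10, an interferon-induced ligand of Cxcr3 on effector T cells, lies at chr5:92346638-92348889. Its lowest, median and highest levels were 3.52, 4.02 and 4.66 in SOD1-G37R mice and 2.65, 3.28 and 3.67 in NT mice. The groups overlapped over both experiments together but not within the larger one, where SOD1-G37R mice ran from 3.90 to 4.19 and NT mice from 2.65 to 3.42. Cxcl16 and Cxcl10 were the 2 ligands so separated within the larger experiment, upward as in 7.07% of all genes and not downward as in 4.72%, and Cxcl16 was the 1 ligand separated within the smaller experiment, upward as in 6.56% of all genes and not downward as in 3.07%. The difference over both experiments was 0.78 (SE 0.120, 95% confidence interval 0.53 to 1.03, limma adjusted p = 2.38e-05).

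In the smaller experiment Cxcl10 was at 4.21, 3.82, 3.52 and 4.66 in SOD1-G37R mice and at 3.19, 3.67, 2.98 and 3.33 in NT mice. SOD1-G37R mouse 3 was below NT mouse 2, and the spread between SOD1-G37R mice (SD 0.496) was wider than in the larger experiment (SD 0.114). The difference of 0.76 (SE 0.210) there was of nearly the size seen in the larger experiment, 0.80 (SE 0.118), but did not pass (limma adjusted p = 0.0572, against 9.08e-05 in the larger experiment). It passed without SOD1-G37R mouse 3, NT mouse 2 or AAV-MIF mouse 1, whose group shares the fit (limma adjusted p = 0.0238, 0.0371 and 0.0451), and not without the 3 mice of high hemoglobin genes (0.80, limma adjusted p = 0.146), and over 20 alternatives the adjusted p ran from 0.0238 to 0.147. Without those 3 mice Cxcl16 stood at 1.75 in the smaller experiment and was still called (limma adjusted p = 0.00738). Among males the genotype difference of the smaller minus that of the larger experiment was -0.07 (SE 0.336, limma adjusted p = 0.999). Within the smaller experiment only Cxcl16 of the 7 ligands was called higher (3.36% of all genes) and none lower (0.477%), while within the larger experiment Cxcl16 and Cxcl10 were called higher (13.1%) and Cx3cl1 lower (11.1%). Exons of Art3 overlap Cxcl10 on the opposite strand, and Art3 was at 3.72 ± 0.123 in SOD1-G37R mice and 3.93 ± 0.309 in NT mice (SD, n = 10 each) and was not called (-0.20, limma adjusted p = 0.141).

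The start of Cxcl10 is shown because its RNA moved together with interferon-induced genes across mice, as given further on. RefSeq promoter windows of 300 bases (GRCm38.p6), mostly upstream of the start, were held for 5 of the ligands, Ccl19, Cxcl10, Cxcl12, Cxcl14 and Cx3cl1. Both strands were searched for GAAA, any 2 bases and GAAA, the core of the interferon-stimulated response element, and for GGGA, any 2 bases and TTCC, a form of the NF-kappa B site, and the matches do not overlap in Cxcl10. The matches, in capitals with 8 bases on either side and 5′ to 3′ on the strand of Cxcl10, begin 213 and 159 bases before its start, at chr5:92349085-92349110 and chr5:92349031-92349056.
Cxcl10, interferon-stimulated response element: acgctttgGAAAGTGAAActtacctc
Cxcl10, NF-kappa B site: aggggagaGGGAAATTCCaagttcat
The first set of letters was in 3.44% and the second in 1.47% of 32851 such windows. Ccl19 and Cxcl14 also held the first, and the windows of Cxcl12 and Cx3cl1 held neither. Whether any of these matches acts in these mice was not tested.

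Ccl5, a CC ligand that draws T cells and monocytes, lies at chr11:83525778-83530518. Its lowest, median and highest levels were 2.30, 2.64 and 3.03 in SOD1-G37R mice and 2.18, 2.52 and 3.08 in NT mice. The groups overlapped over nearly their whole range. The difference was 0.11 (SE 0.117, 95% confidence interval -0.13 to 0.36, limma adjusted p = 0.536). Of 5 T cell marker genes measured none was called (median difference 0.13), and the list's mean level ran from 1.18 to 1.44 in SOD1-G37R mice and from 0.999 to 1.26 in NT mice.

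Ccl19, a ligand of Ccr7 that guides naive T cells and dendritic cells to lymph nodes, lies at chr4:42754525-42756577. It was at 0.774, 0.998 and 1.15 in SOD1-G37R mice and 0.716, 0.830 and 0.859 in NT mice (lowest, median and highest). The SOD1-G37R mice spread more widely (SD 0.126) than the NT mice (SD 0.0425), and 10 against 10 the groups overlapped. The difference of 0.17 (SE 0.0549) was called (limma adjusted p = 0.0218), but not with each mouse centred on its own median (0.11, limma adjusted p = 0.182) nor in the 14 untreated males alone (0.17, limma adjusted p = 0.122). It was not called within the larger (0.17, limma adjusted p = 0.152) or the smaller experiment (0.17, limma adjusted p = 0.414). Ccl19 stood at the 11.5th percentile of levels, and GENCODE M21 lists 2 Ccl19 pseudogenes, Ccl19-ps1 and Ccl19-ps3, whose reads the counting may not have separated from it.

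Cxcl12, a homing ligand of Cxcr4 that endothelial, mural and meningeal cells make, lies at chr6:117168535-117181367. It was at 5.52, 5.85 and 6.35 in SOD1-G37R mice and 5.56, 5.81 and 6.13 in NT mice (lowest, median and highest), and the groups overlapped. The difference was 0.06 (SE 0.0873, 95% confidence interval -0.12 to 0.24, limma adjusted p = 0.704). None of the 6 endothelial genes (median difference -0.04) and none of the 7 mural cell and fibroblast genes measured (-0.04) was called.

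Cx3cl1 lies at chr8:94772009-94782427. Its lowest, median and highest levels were 7.80, 8.11 and 8.57 in SOD1-G37R mice and 8.15, 8.27 and 8.55 in NT mice. The highest SOD1-G37R mouse, mouse 4 of the smaller experiment, was above every NT mouse. Over both experiments the difference was -0.21 (SE 0.0809, 95% confidence interval -0.38 to -0.04) and was not called (limma adjusted p = 0.0600). Without that mouse it was -0.26 and was called lower (limma adjusted p = 0.00842), and so it was without NT mouse 4 (-0.23, limma adjusted p = 0.0477) or with each mouse centred on its median (-0.27, limma adjusted p = 0.0168).

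Within the larger experiment Cx3cl1 was called lower, at 7.80, 8.05 and 8.22 in SOD1-G37R mice and 8.15, 8.33 and 8.55 in NT mice (lowest, median and highest; -0.31, SE 0.0988, limma adjusted p = 0.0313). That call was lost without any 1 of 6 of the 12 mice, namely SOD1-G37R females 2 and 3, SOD1-G37R male 6, NT female 3 and NT males 5 and 7 (limma adjusted p = 0.0605 to 0.0814), and under quantile normalization (-0.22, limma adjusted p = 0.110). In the smaller experiment it was at 8.12, 8.09, 8.10 and 8.57 in SOD1-G37R mice and 8.23, 8.31, 8.40 and 8.19 in NT mice. Of these SOD1-G37R mice all but mouse 4 lay under the lowest NT mouse, and the difference was -0.06 (SE 0.122, limma adjusted p = 0.874). Among males the genotype difference of the smaller minus that of the larger experiment was 0.24 (SE 0.184, limma adjusted p = 0.999). Of 6 neuron marker genes Rbfox3, Snap25, Stmn2, Tubb3 and Map2 fell and Syt1 was not called, over the 2 experiments together and also in the larger one, where Cx3cl1 was called. In the smaller experiment only Rbfox3 of the 6 was called lower. Over both experiments the mean of the 6 genes ran from 8.08 to 8.67 in SOD1-G37R mice and from 8.72 to 8.96 in NT mice. The part of neuronal RNA in the Cx3cl1 values was not tested.

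Cxcl14, which many epithelial and neural tissues make at rest and whose receptor is debated, lies at chr13:56288643-56296551. It was at 7.78, 8.15 and 8.49 in SOD1-G37R mice and 7.72, 7.91 and 8.30 in NT mice (lowest, median and highest). The groups overlapped, and the difference of 0.14 (SE 0.0881, 95% confidence interval -0.04 to 0.32) was not called (limma adjusted p = 0.273). No ligand was called for a difference of the genotype effect between the sexes or between the experiments (limma, 0 of 15524 genes each, with 4.34% and 3.57% of genes at an unadjusted p under 0.05, none of the 7 ligands among them).

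**Figure D2:**
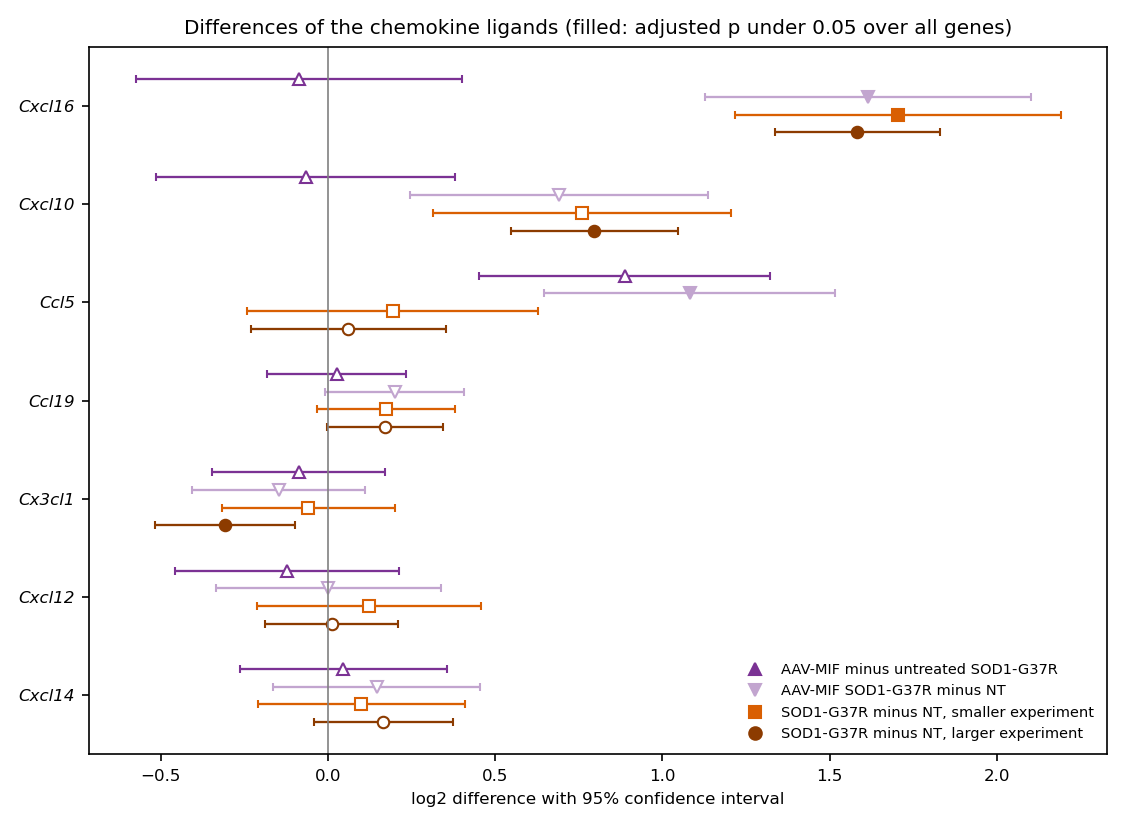
Log2 difference with its 95% confidence interval for each ligand in AAV-MIF minus untreated SOD1-G37R mice, AAV-MIF SOD1-G37R minus NT mice, and SOD1-G37R minus NT mice in the smaller and the larger experiment; filled symbols passed an adjusted p of 0.05 over all genes. The interval of Ccl5 in AAV-MIF minus untreated SOD1-G37R mice runs from 0.45 to 1.32 with an open symbol, and Cxcl16 is filled in every comparison with NT mice.

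AAV-MIF mice were then compared with untreated SOD1-G37R males of the smaller experiment. Ccl5 was higher in all 4 AAV-MIF mice than in any untreated mouse, but no ligand passed the test over all genes. The other 6 ligands differed by -0.12 to 0.05. In limma 0 of the 7 ligands were called, beside 1 gene in all, Cd74 (0.00644% of genes), and at an unadjusted p under 0.05 the ligands held 1, Ccl5, where all genes held 511 (3.29%).

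Ccl5 was at 4.18, 3.49, 3.43 and 3.34 in AAV-MIF mice, against 2.83, 2.30, 2.73 and 3.03 in untreated SOD1-G37R mice and 2.26, 2.79, 2.19 and 2.88 in NT mice of the smaller experiment. The lowest AAV-MIF mouse was above the highest mouse of both untreated groups, and also above the highest mouse of the larger experiment, at 3.08. All 4 AAV-MIF mice lay above all 4 untreated SOD1-G37R mice in 0.96% of genes (below them in 0.837%, and in none of the ligands), and above all 20 untreated mice in 6 genes (0.0386%), which were Ccl5, Cd74, the immunoglobulin chain genes Ighg2b and Igkc, Anks6 and Cetn1 (named after their values were seen). The difference from untreated SOD1-G37R mice was 0.89 (SE 0.205, 95% confidence interval 0.45 to 1.32), the sixth smallest p of 15524 genes (rank 6, unadjusted p = 5.24e-04), and did not pass (limma adjusted p = 0.9997). Across 21 alternatives it ran from 0.54 to 0.99 with limma adjusted p from 0.0781, when all 24 mice shared 1 fit, to 1.

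AAV-MIF mouse 1 had both the highest Ccl5 level and the highest hemoglobin gene level of the series. Without it the difference from untreated SOD1-G37R mice was 0.70, and without all 3 mice of high hemoglobin genes, which leaves 3 AAV-MIF and 2 SOD1-G37R mice, it was 0.54 (limma adjusted p = 0.977). The other 3 AAV-MIF mice had hemoglobin levels of 5.29, 5.68 and 5.63 and Ccl5 levels above every untreated mouse. SOD1-G37R mice 1 and 2, with hemoglobin at 9.93 and 8.82, had Ccl5 at 2.83 and 2.30. The part of blood in these Ccl5 levels was not tested. Genes of T cells and cytotoxic cells, which are known to make Ccl5, were looked at in the same mice. The mean of the 5 measured of 10 T cell genes, 2 of which were under a level of 1, was 1.30 to 1.35 in AAV-MIF mice, 1.20 to 1.44 in SOD1-G37R mice and 1.03 to 1.18 in NT mice, and Nkg7 was at 0.709 to 1.12, 0.677 to 1.11 and 0.671 to 0.792 in the same groups. None of these genes was called in either comparison of AAV-MIF mice, and the part of such cells in the Ccl5 level was not tested.

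**Figure D3:**
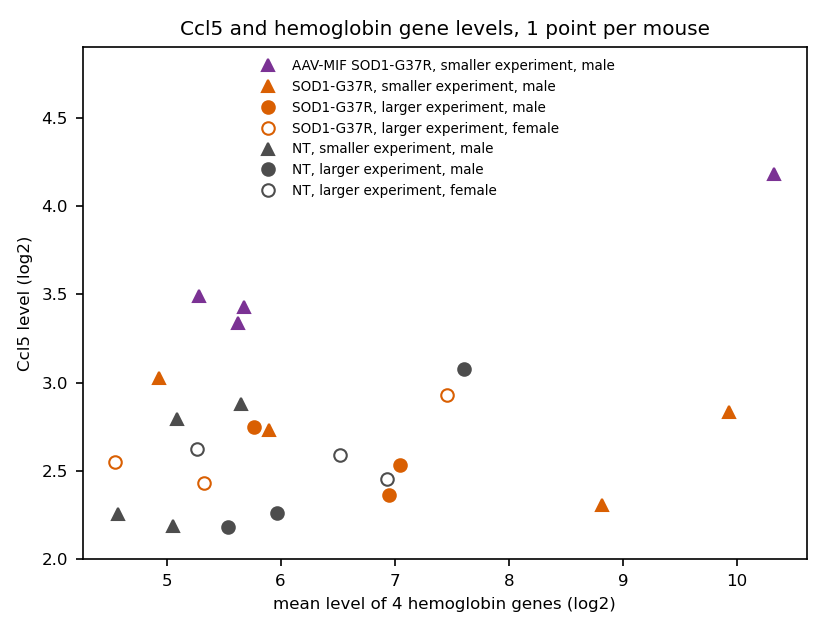
Ccl5 level (log2, vertical axis) against the mean level of 4 hemoglobin genes (log2, horizontal axis), 1 point per mouse, coloured by group with the symbols giving sex and experiment. The 4 AAV-MIF mice lie at 3.34 to 4.18 for Ccl5, 1 of them at a hemoglobin level of 10.3 and the other 3 at 5.29 to 5.68.

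The levels of the other ligands overlapped between AAV-MIF and untreated SOD1-G37R mice. Cxcl16 was at 5.78, 5.13, 5.84 and 5.05 in AAV-MIF mice, against 5.72, 5.26, 6.09 and 5.08 in SOD1-G37R mice (-0.09, 95% confidence interval -0.58 to 0.40, limma adjusted p = 0.9997). In both groups mice 1 and 3 lay above mice 2 and 4, and in NT mice, at 3.58, 3.88, 4.26 and 3.61, they did not. Cxcl10 was at 4.36, 3.83, 3.83 and 3.92 in AAV-MIF mice, against 4.21, 3.82, 3.52 and 4.66 in SOD1-G37R mice (-0.07, 95% confidence interval -0.51 to 0.38). In the same experiment the genotype difference was 1.70 for Cxcl16 (95% confidence interval 1.22 to 2.19) and 0.76 for Cxcl10 (0.31 to 1.20). The AAV-MIF interval of Cxcl16, down to -0.58, did not reach the size of its genotype interval. That of Cxcl10, down to -0.51, did reach it, so a fall as large as 0.31 was not excluded for Cxcl10. These comparisons share the 4 untreated SOD1-G37R mice. Cx3cl1 was at 7.92, 8.22, 8.22 and 8.16 in AAV-MIF mice, against 8.12, 8.09, 8.10 and 8.57 in SOD1-G37R mice (-0.09, 95% confidence interval -0.35 to 0.17). For Cxcl12, Cxcl14 and Ccl19 the intervals ran from -0.46 to 0.21, from -0.26 to 0.36 and from -0.18 to 0.23.

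Against NT mice of the smaller experiment, AAV-MIF mice were called higher for Cxcl16 and Ccl5 (2 of the 7 ligands, 2.89% of all genes called higher) and lower for none (0.225%). Cxcl16 differed by 1.62 (SE 0.230, limma adjusted p = 6.13e-04). Ccl5 differed by 1.08 (SE 0.205, 95% confidence interval 0.65 to 1.52, limma adjusted p = 0.00578), and by 0.89 without AAV-MIF mouse 1 (limma adjusted p = 0.0172). Without the mice of high hemoglobin genes Ccl5 differed by 0.89 (limma adjusted p = 0.0159) and Cxcl16 by 1.51 (limma adjusted p = 0.00685). The call of Ccl5 held in all 21 alternatives, with limma adjusted p between 2.81e-04 and 0.0274. This comparison and that with untreated SOD1-G37R mice share the AAV-MIF mice, and SOD1-G37R mice of the same experiment differed from the same NT mice by 0.19 in Ccl5 (SE 0.205, limma adjusted p = 0.719).

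Cxcl10 differed from NT mice by 0.69 (SE 0.210, limma adjusted p = 0.0986), and passed when only these 8 mice entered the fit (limma adjusted p = 0.0299) or all 24 did (0.70, limma adjusted p = 0.00977), but not without the mice of high hemoglobin genes (0.57, limma adjusted p = 0.269), the highest adjusted p of 21 alternatives. Ccl19 differed by 0.20 (SE 0.0978, limma adjusted p = 0.371) and its 4 AAV-MIF mice, at 0.853, 1.09, 1.01 and 1.11, lay just above the NT mice, at 0.797, 0.784, 0.831 and 0.847. Cxcl16, Cxcl10, Ccl5 and Ccl19 were the 4 ligands whose AAV-MIF mice all lay above the NT mice, a separation seen in 6.48% of all genes (3.17% downward, and none of the ligands). Cx3cl1, Cxcl12 and Cxcl14 differed by -0.15, 0.00 and 0.15 and were not called.

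The other genes of the chemokine system were taken from lists chosen by role. Of 32 other ligands 11 were measured, and in SOD1-G37R against NT mice 5 were called higher and 1 lower (median difference 0.20, beside 0.00 over all genes). Ccl3, Ccl4 and Ccl6, which draw monocytes, had the largest differences, at 1.38 (SE 0.118), 1.21 (SE 0.0900) and 1.31 (SE 0.110). Ccl3 was at 3.95, 4.51 and 4.86 in SOD1-G37R mice and 2.86, 3.05 and 3.41 in NT mice (lowest, median and highest). The lowest SOD1-G37R mouse was above the highest NT mouse, as it was for Ccl4 and Ccl6. Ccl2 and Pf4 rose by 0.42 and 0.34. The Ccl27a row, which shares its reads with near-identical copies, fell by 0.34.

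Of 23 receptors 6 were measured, and Cx3cr1, Cxcr4 and the atypical receptor Ccrl2 were called higher, Ackr1, a scavenger of ligands on vessels and red cells, lower, and the others, Ccr10 (0.01) among them, neither (median 0.21). Cx3cr1, the receptor of Cx3cl1, was at 5.81, 6.32 and 6.80 in SOD1-G37R mice and 4.80, 5.14 and 5.48 in NT mice (lowest, median and highest), a difference of 1.21 (SE 0.107, limma adjusted p = 7.15e-09). Cxcr4, the receptor of Cxcl12, rose by 0.85 (SE 0.0906). So the receptors of Cx3cl1 and Cxcl12 rose where their ligands were not called higher. Ackr3, Cxcr3, Cxcr6, Ccr7 and the ligand-trimming enzyme Dpp4 were looked for, had no row under these names in the expression table and could not be tested.

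Of 12 enzymes that shed or trim chemokines, with their regulators, 10 were measured, and 8 were called higher and none lower (median 0.44). Adam17, which cuts Cxcl16 and Cx3cl1 from the membrane, rose by 0.74 (SE 0.0941, limma adjusted p = 1.94e-06), with its partners Rhbdf1 and Rhbdf2 at 0.53 and 0.36. Adam10 stood at 0.18 (SE 0.0945, limma adjusted p = 0.177) and Ctsk at -0.01. Cathepsin S (Ctss), which can release the Cx3cl1 ectodomain, rose by 1.64 (SE 0.123), and Anpep, an aminopeptidase that trims ligands, by 1.22 (SE 0.0997).

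**Figure D4:**
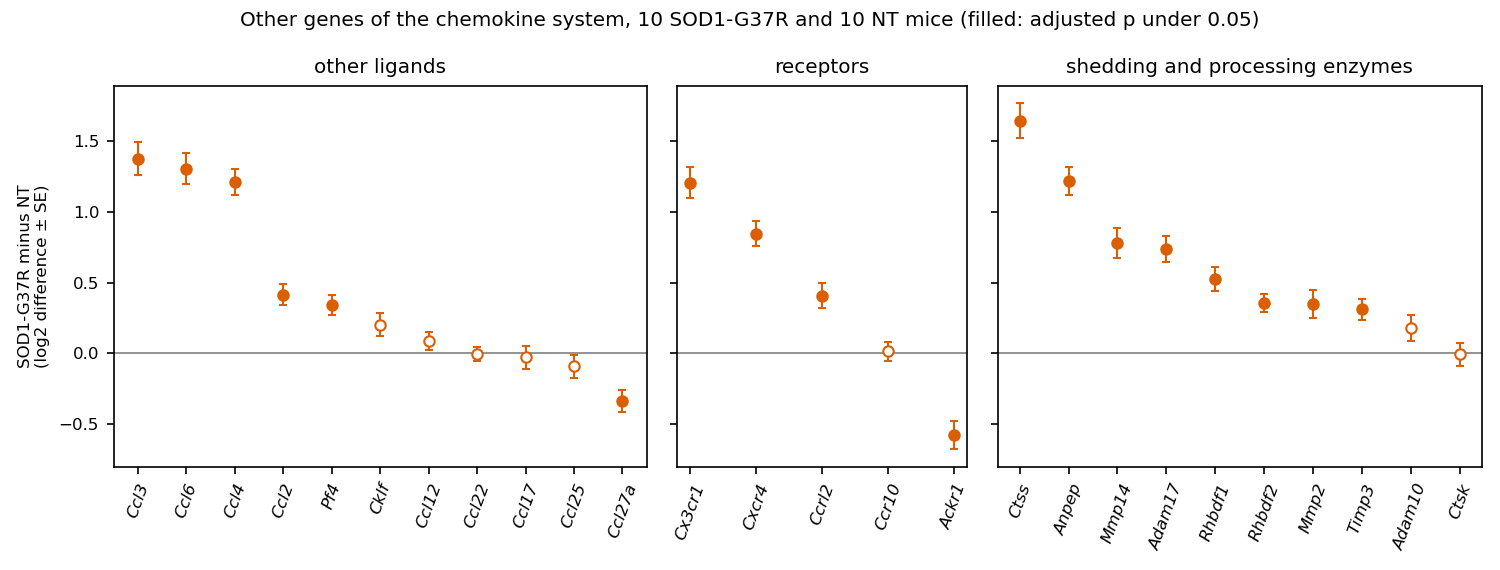
Log2 difference of untreated SOD1-G37R minus NT mice (10 each, points with SE bars) for genes of 3 lists, other chemokine ligands, receptors, and shedding and processing enzymes; filled points passed an adjusted p of 0.05 over all genes. Ccl3, Ccl6 and Ccl4 stand between 1.21 and 1.38, and Ackr1 is the lowest at -0.58.

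Of 34 genes of chemokine receptor signalling 19 were called higher and 1, the receptor kinase Grk2, lower (median 0.27), and the kinase Lyn (0.96), the exchange factor Vav1 (0.99) and Dock2 (0.97), which drives leukocyte movement, were among the genes of smallest p. Of 17 genes of the transcriptional control of chemokines 13 rose and none fell (median 0.45), and 1 of those that rose, Nfkbia (0.56), encodes an inhibitor of NF-kappa B and not a factor. Irf8, a myeloid factor, rose by 1.65, Cebpb by 1.02 and Stat3 by 0.71, while of the interferon response Irf9 and Irf1 rose by 0.45 and 0.33, and Stat2, Irf3 and Irf7 stood at -0.10, 0.06 and -0.15 and were not called. Of 15 core proteins and enzymes of the sugar chains that hold chemokines 6 rose and none fell (median 0.20), with Sdc4 at 0.82, Ndst1 at 0.63 and Bgn at 0.61. The shares called higher over all genes given above are the background for these counts. In AAV-MIF against untreated SOD1-G37R mice none of the genes of these 6 lists was called. Against NT mice, AAV-MIF mice were called higher for 3 of the 11 other ligands (Ccl3, Ccl4 and Ccl6), 1 of 6 receptors (Cx3cr1, 0.78), 2 of 10 enzymes (Ctss, 1.47, and Adam17, 0.57), 6 of 34 signalling genes, 3 of the 17 transcriptional control genes and 1 of 15 sugar chain genes, and lower for none.

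Across mice, with the mean of each group in each experiment removed, the ligands differed in how they varied together. Sex was not removed, so in the larger experiment a difference between females and males stays in these values. Over 24 mice the 21 pairs of ligands had Pearson's r from -0.43 to 0.71 (median 0.02), and the highest were Cxcl14 with Cxcl16 (r = 0.71, Spearman's rho = 0.65) and Ccl5 with Cxcl10 (r = 0.66, rho = 0.71). Without the 2 mice farthest from the median these were 0.58 and 0.62. They were 0.46 and 0.57 within the larger experiment and 0.89 and 0.72 within the smaller one. In the smaller experiment Cxcl14, like Cxcl16, was higher in mice 1 and 3 than in mice 2 and 4 of the AAV-MIF and SOD1-G37R groups. The mean of the neuron marker genes was lower in mice 1 and 3 of both groups, and its part in this pair was not tested. All these correlations share the libraries and their depth, and no p is given because the pairs were picked as the highest.

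For each ligand the 3 most similar of the other 15523 genes were found in the same way. Those of Ccl5 were H2-Q7/H2-Q9, a class I antigen presentation row (r = 0.87), Usp18 (0.80), which removes Isg15 from proteins, and Bst2 (0.79), an antiviral membrane protein. Those of Cxcl10 were Exoc3l2 (0.80) and Ifi27 and Isg15 (0.75 each). Usp18, Bst2, Ifi27 and Isg15 are known for induction by interferon. Those of Cxcl16 were the actin regulator Cotl1 (0.92), Emp3 (0.90) and the tumor necrosis factor receptor Tnfrsf1a (0.88).

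For Cxcl14 they were the integrin chain Itgb5, the kinase Mapkapk2 and the transcription subunit Taf10 (r = 0.82 to 0.83), and those of Cxcl12 included the interleukin receptor chain Il10rb (0.79) and the lipid droplet protein Plin2 (0.76). They were, for Cx3cl1, Smarce1-ps1, Ttyh3 and Abr (0.78 to 0.80), and for Ccl19 Stard9, Zbed5 and the biliverdin reductase Blvra (0.72 to 0.73). Without the 2 mice farthest from the median, the values were 0.76 to 0.82 for Ccl5, 0.69 to 0.76 for Cxcl10 and 0.84 to 0.90 for Cxcl16, and 0.58 to 0.82 for the other ligands. Spearman's rho of these pairs was 0.60 to 0.94. Within 1 experiment Pearson's r ran from 0.41 to 0.95.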

How the data were processed

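The labels and the study's methods describe 3′-end libraries (MARS-seq) with molecular identifiers, trimmed with Trim Galore 0.4.5 and cutadapt 1.15, aligned to GRCm38 with STAR 2.5.2a and counted with RSEM 1.2.28. The deposited values are on a log2 scale, normalized by the authors with DESeq2, with the experiment removed by SVA/ComBat. The transform is not given in the sources used here. The files give no depth per library, so no counting interval is given. The authors' own fold changes and p-values were not used. Experiments were read from sample codes.

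limma 3.58.1 in R 4.3.3 was run on all 15524 genes with no filter and Benjamini-Hochberg adjustment, with genotype and experiment as terms over both experiments, genotype and sex within the larger, and 3 groups in the smaller. limma was tested on simulated data. Batch removal before testing can make p-values too small. The p-values weigh each difference against the spread between mice, with that spread moderated over all genes. Intervals are at 95%.

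Members, lists and tests were chosen with earlier results of these data known. Named were the 7 ligands, 2 to 4 genes per list of smallest adjusted p, listed receptors and shedding enzymes, and 3 most similar genes per ligand; genes outside this rule are list members given to complete a count, and a few genes under it are not reported here. The table itself named 13809 genes, GENCODE M21 a further 1711, and 4 had no symbol. Alternatives were scaling, filter, variance trend, model terms, threshold and single mice left out. Those without mice of high hemoglobin genes were chosen after seeing the data.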

Additional observations from a re-analysis of the deposited data

Results flagged for a closer look

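In 35 combinations of ligand, group and experiment, each of 4 or 6 mice, 4 held a mouse set apart from the others of its group by Dixon's criterion, where chance alone sets apart about 1 in 20. NT male 6 of the larger experiment was the lowest of its 6 for both Cxcl10 (2.65, next 3.23) and Ccl19 (0.716, next 0.820). SOD1-G37R male 4 of the smaller experiment was the highest of 4 for Cx3cl1 (8.57, next 8.12). NT male 3 of the smaller experiment was the highest of 4 for Cxcl14 (8.20, next 7.92). No test found a difference of a ligand's genotype effect between sexes or between experiments.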

How the results depend on the processing

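Of 989 values of single ligands under alternative settings, 966 stayed called or stayed uncalled, as the reported value was. A further 12 passed the threshold where the reported value did not, 11 lost it, and none that was called changed sign. The 966 are partly fixed by construction. Leaving out a mouse of neither compared group keeps the difference as it was in the smaller experiment. The tests by sex and by experiment, which called no gene as reported, are also among the 989. In SOD1-G37R against NT mice over both experiments, 4120 genes were called, 2444 in males alone and 2684 at an adjusted p under 0.01, where Ccl19 was not called. With each mouse centred on its median 1 ligand was called lower, Cx3cl1, the call of Ccl19 was lost, and 35.8% of calls were higher, against 55.6% as reported. In the larger experiment the same share was 36.4% against 54.1%, and 0 ligands were called lower under quantile normalization and at an adjusted p under 0.01, where 2365 genes of 3750 were called. In the smaller experiment 2 ligands, Cxcl16 and Cxcl10, were called higher with a trend in the variance, with a mean level of 2 or more, and with the replicate block (Cxcl10, limma adjusted p = 0.0253, 0.0264 and 0.0292), and of 595 genes 261 were called at an adjusted p under 0.01 and 296 without the mice of high hemoglobin genes. AAV-MIF against untreated SOD1-G37R mice had 1 gene called, 0 with only 2 groups in the fit, with an adjusted p under 0.01, without the mice of high hemoglobin genes or with the replicate block, and 4 with all 24 mice, 3 with the trend and 2 with the level filter. AAV-MIF against NT mice had 483 genes called, 1299 with all 24 mice, 246 at an adjusted p under 0.01 and 319 without the mice of high hemoglobin genes, and 82% of calls were higher with centring against 92.8%. Leaving out single mice gave 0 to 1 ligands called lower over both experiments and in the larger one, 1 to 2 called higher and 308 to 856 genes called in the smaller one, 0 to 2 genes in AAV-MIF against untreated SOD1-G37R mice, and 276 to 588 genes against NT mice. In the smaller experiment Cxcl10 passed without AAV-MIF mouse 1, SOD1-G37R mouse 3 or NT mouse 2 (limma adjusted p = 0.0451, 0.0238 and 0.0371), and against NT mice without SOD1-G37R mouse 4 (limma adjusted p = 0.0411). The cause of these changes was not tested, other than fewer mice or fewer genes by construction.

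No clear pairing of mice by replicate number was seen, and sets of 4 or 6 pairs are too few to settle it. Deviations of same-numbered mice correlated at -0.03 to 0.26 in the larger experiment, -0.17 to 0.24 for SOD1-G37R and NT mice of the smaller one, 0.06 to 0.37 for AAV-MIF and SOD1-G37R mice and -0.26 to 0.07 for AAV-MIF and NT mice, and in no set did every mouse correlate best with its own number. With the replicate block 4147, 3787, 721, 0 and 580 genes were called over both experiments, in the larger, in the smaller, in AAV-MIF against SOD1-G37R and in AAV-MIF against NT mice, and the block changed no call of a ligand other than Cxcl10 in the smaller experiment. Ccl19 has no value with the level filter, since its mean level is under 2. Values near 0 spread less (median within-group SD 0.111 for levels under 1, against 0.203 for levels of 2 to 4), and the values do not show how many molecules lie behind Ccl19 or Ccl5 in a library.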
